A study of Astyanax mexicanus with 20 samples.

Results

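The translation factors and aminoacyl-tRNA synthetases described here were the 116 genes, of 27420 in the deposited expression table of Astyanax mexicanus skeletal muscle, whose names begin with eif1 to eif6 or eef or are a synthetase name (a letter followed by ars, or eprs). The choice used names only and no measured value, so the 8654 rows of the table without a gene name could not enter it. Of the 116 genes, 115 passed the filter on low values and were tested. The gene left out was eif4e1b, an eIF4E relative with 24.4 scaled TPM in cave 14 dpi replicate 1 and under 1 in the other libraries. Astyanax mexicanus is a fish with an eyed form living in rivers and blind forms living in caves.

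Muscle of the cave form was injected with cardiotoxin, a venom toxin that kills muscle fibres, and sampled 1 (3 libraries), 7 (2 libraries) and 14 (2 libraries) days post injury (dpi), or was injected with phosphate-buffered saline as a control (3 libraries). The surface form had the same groups with the same numbers of libraries. The control labels give no day, so the time between saline injection and sampling is unknown. A general protocol label names free-running darkness and the design text a 24-hour series with 3 fish at each time, whereas the sample labels used for grouping give form, injection and day. Whether the libraries in a group are different animals is not stated; p-values therefore reflect only how these libraries vary, which may be technical.

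Protein synthesis starts when eIF2, carrying the initiator tRNA, joins eIF1, eIF1A, eIF3 and eIF5 on the small ribosomal subunit, and the eIF4F cap complex with its helicase eIF4A brings in the mRNA. Kinases of the EIF2AK family phosphorylate eIF2 and so block its exchange factor eIF2B, and the eIF4E-binding proteins (4E-BPs) keep eIF4E from the cap complex. During elongation eEF1A delivers charged tRNAs, the eEF1B complex recharges eEF1A with GTP, eEF2 moves the ribosome and eEF2 kinase inhibits eEF2. Each aminoacyl-tRNA synthetase loads 1 amino acid, except that of eprs1 (glutamate and proline). For most amino acids the cytosol and mitochondria have separate enzymes. Muscle that regenerates after a toxin first loses fibres and then builds new ones, which is a large demand for protein synthesis.

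The table gives TPM, a per-length measure of transcript abundance whose sum is the same in every library, so the loss of very abundant muscle transcripts raises the values of other genes. TPM were therefore divided by a factor for each library, the median ratio over genes present in all libraries, and are called scaled TPM below. The factors lay between 1.25 and 1.64 at 1 dpi and 0.837 and 1.03 in controls of cave fish, and between 0.965 and 1.92 at 1 dpi and 0.687 and 0.902 in controls of surface fish. Before scaling, the 116 genes together took 0.982 to 1.14% of all TPM at 1 dpi against 0.743 to 0.939% in controls of cave fish, and 0.984 to 1.51% at 1 dpi against 0.670 to 0.866% in controls of surface fish. The labelled tissue carried its markers: 19 fast fibre genes summed to 111800 to 171600 scaled TPM at 1 dpi against 222600 to 346000 in controls of cave fish, and to 51920 to 258800 at 1 dpi against 336600 to 474400 in controls of surface fish, and no fibre marker was at 0 in any library. Leukocyte markers, 21 rows, summed to 830.4 to 928.6 at 1 dpi against 267.8 to 484.6 in cave controls, and to 350.1 to 562.2 at 1 dpi against 399.3 to 479.7 in surface controls. Of the granulocyte rows, the 3 for lysozyme were at 0 in 19, 20 and 3 libraries and the mpx rows in 14 and 2. Skin markers summed to 9396 scaled TPM in cave 1 dpi replicate 3 and 2307 in cave control replicate 2 (the skin-rich libraries), against 367.9 to 2097 in the others. The 2097 belonged to surface 1 dpi replicate 2, which lay close below the 2307 and was not counted as skin-rich. In bulk muscle fewer cells of a type and less RNA per cell cannot be told apart, and the part of these shifts in the results below was not tested.

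On the scaled TPM scale, which is per transcript length, 26 of the 116 genes averaged at least 100 over all libraries, 56 lay between 10 and 100, 30 between 1 and 10 and 4 under 1. The most abundant rows were subunits of the eEF1B exchange complex: eef1b2 averaged 1076 scaled TPM, eef1g 967.2 and eef1da 755.0. The helicase gene eif4a1b followed at 577.9 and EIF5AL1, a row named after a copy of the elongation factor eIF5A, at 445.0. Among initiation factors eif1 averaged 207.3, the eIF3 subunit genes eif3k, eif3ha and eif3g 182.3, 181.5 and 178.9, and the eIF2 subunit genes eif2s2 and eif2s3 159.4 and 148.3. Of the cytosolic synthetases nars1 (asparagine) averaged 179.6 and hars (histidine) 178.6, while cars1 (cysteine) averaged 13.6. Mitochondrial synthetases were low, led by iars2 (isoleucine) at 23.6. Among the 10 inhibitors and kinases the 4E-BP genes eif4ebp3l, eif4ebp1, eif4ebp2 and eif4ebp3 averaged 137.3, 110.7, 63.5 and 16.6 and the eEF2 kinase gene eef2k 87.9, while the eIF2 kinase genes eif2ak1, EIF2AK4, eif2ak3 and eif2ak2 averaged 17.1, 4.89, 2.50 and 1.45.

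eEF1A, normally one of the most abundant proteins of a cell, could not be followed. The 3 rows that carry its name, eef1a1a, eef1a1l2 and eef1a2, averaged 0.958, 0.929 and 0.728 scaled TPM, and no abundant row has an eEF1A name. Rows of near-identical genes share reads, so these 3 values are uncertain. Their sum lay between 0.23 and 6.35 TPM in a library, so shares of it rest on values near the floor. As a share of their sum, eef1a2 took 31.9% ± 2.04 in surface 1 dpi and 18.3% ± 4.57 in surface control libraries (SD, n = 3 each, two-sided exact permutation p = 0.1, the smallest that 3 against 3 allows), and 21.5% ± 15.5 in cave 1 dpi and 20.7% ± 6.50 in cave control libraries (exact permutation p = 1).

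One day after injury the most marked rise in both forms was that of eif5a2, an isoform gene of eIF5A, the hypusine-bearing factor that helps ribosomes past difficult peptide bonds. It measured 15.9, 19.99 and 18.1 scaled TPM in cave 1 dpi libraries, against 2.95, 4.12 and 2.12 in cave controls. In surface fish eif5a2 measured 20.5, 17.3 and 17.9 scaled TPM at 1 dpi, against 3.54, 3.41 and 2.98 in controls. Injured and control libraries did not overlap in either form, and the log2 changes were 2.25 ± 0.28 in cave fish (SE, limma adjusted p = 4.5e-05) and 2.18 ± 0.28 in surface fish (adjusted p = 0.00027). Fold changes and log2 changes here and below are on the log2(scaled TPM + 1) scale, which understates changes of low genes. Many genes named here and below were picked among called genes whose groups did not overlap, so for them non-overlap adds no support.

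eef2k, whose product slows elongation by phosphorylating eEF2, fell in both forms at 1 dpi. Cave libraries held 30.7, 19.9 and 32.3 scaled TPM at 1 dpi, against 138.0, 106.7 and 92.1 in controls (log2 change −1.99 ± 0.33, adjusted p = 0.00044). Surface libraries held 66.2, 65.3 and 24.6 scaled TPM at 1 dpi, against 109.2, 129.7 and 198.4 in controls (log2 change −1.55 ± 0.33, adjusted p = 0.0057). All injured libraries lay below all controls of their form, with surface 1 dpi replicate 3 well below the other two. eef2b, the row of the set named for eEF2 itself, did not pass at 1 dpi in either form (log2 change 0.43 ± 0.19 in cave and 0.26 ± 0.19 in surface fish). Its level lay far below those of the abundant eEF1B rows eef1b2, eef1g and eef1da, and 8654 rows of the table carry no gene name. Whether eef2b is the main eEF2 gene of this muscle is therefore unknown.

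In cave fish at 1 dpi 19 of the 115 tested genes rose and 8 fell, beside 15.7% and 9.07% of all genes tested (24.8% in all), so the shares of the translation genes that rose (16.5%) and fell were near those of the whole table. The median log2 change of the 115 genes was 0.01, against 0.04 over all genes. Of the initiation genes, eif1ad (an eIF1A-domain protein), the eIF5 row ENSAMXG00000019210, eif1axa (eIF1A), the eIF4E relatives eif4e2rs1 and eif4e1c, eif4g2a (a scaffold related to eIF4G) and eif3eb rose, and the eIF3 subunit rows eif3hb and eif3ea fell. eif1ad stood at 19.99, 20.05 and 20.2 scaled TPM in cave 1 dpi libraries, against 10.5, 6.96 and 7.21 in controls (log2 change 1.21 ± 0.28, adjusted p = 0.0047). The eIF5 row measured 33.0, 39.4 and 46.8, against 17.5, 15.8 and 17.4 in controls (1.17 ± 0.25, adjusted p = 0.0031). eif4e2rs1 measured 9.48, 12.1 and 13.9, against 3.93, 5.04 and 2.88 (1.38 ± 0.31, adjusted p = 0.0043). In these 3 genes no injured library reached down to a control, which was a condition for naming them, whereas for eif4g2a the groups overlapped.

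The elongation genes went in both directions in cave fish at 1 dpi. Beside eif5a2, eif5a, eefsec (which delivers selenocysteine tRNA) and eef1db rose, by log2 changes of 0.58 to 0.59, while EIF5AL1 and the abundant eef1da had log2 changes of −0.77. eef1da measured 680.0, 495.7 and 591.2 scaled TPM in cave 1 dpi libraries, against 1040, 842.8 and 1122 in controls (adjusted p = 0.019), so its level fell while that of its paralogue eef1db rose. eif2ak3, the kinase PERK that responds to stress of the endoplasmic reticulum, rose in both forms, by 0.78 ± 0.20 in cave fish (adjusted p = 0.0094) and 0.63 ± 0.20 in surface fish (adjusted p = 0.044). The other eIF2 kinases and the 4E-BP genes did not pass in either form at this time.

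Of 19 cytosolic synthetases 4 rose in cave fish at 1 dpi and 2 fell, beside 15.7% and 9.07% of all genes tested. mars1 (methionine), rars1 (arginine), WARS1 (tryptophan) and cars1 had log2 changes of 0.91 to 1.01, and iars1 (isoleucine), among the 2 that fell, a change of −0.53. Of 16 mitochondrial synthetases, beside the same shares of all genes, yars2 (tyrosine) and the pars2 row (proline) ENSAMXG00000032578 rose and fars2 (phenylalanine) fell. yars2 measured 5.33, 6.31 and 4.84 scaled TPM in cave 1 dpi libraries, against 2.12, 1.93 and 1.65 in controls (log2 change 1.16 ± 0.21, adjusted p = 0.001). fars2 measured 5.47, 3.30 and 2.67, against 7.59, 6.07 and 6.90 in controls (−0.74 ± 0.19, adjusted p = 0.0099). The methyltransferase gene eef1akmt1, which modifies a lysine of eEF1A, also rose (0.96 ± 0.18, adjusted p = 0.0013). Calls of 11 of the 27 genes held whichever single library was left out. The count was 13 without cave 1 dpi replicate 3, 15 without cave control replicate 1 or 3, 16 without cave 1 dpi replicate 2, and 15 without both skin-rich cave libraries.

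In surface fish at 1 dpi 8 of the 115 genes rose and 4 fell, beside 8.35% and 6.41% of all genes tested (14.8% in all). eif3eb, the eIF5 row ENSAMXG00000019210, eif4e2rs1, yars2 and eif2ak3 rose as in cave fish, and eif3hb fell. eif4a1a, a gene for the cap-complex helicase eIF4A, measured 83.1, 87.8 and 72.4 scaled TPM at 1 dpi, against 37.7, 37.4 and 37.4 in controls (log2 change 1.09 ± 0.28, adjusted p = 0.015). Its rise in cave fish, 71.0, 82.8 and 106.1 against 66.0, 54.4 and 61.0, did not pass (0.50 ± 0.28, adjusted p = 0.21). eif4g3b rose (0.74 ± 0.23) and eif4g2b and EEF1AKMT3 fell (−0.42 ± 0.13 and −0.71 ± 0.19). No cytosolic synthetase passed in surface fish at this time. Of the 115 genes 8 passed in both forms, all in the same direction: eif5a2, eif4e2rs1, the eIF5 row, yars2, eif3eb, eif2ak3, eef2k and eif3hb. That was 6.96% of them, against 10.5% of all genes tested.

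The surface 1 dpi calls varied with how the libraries were fitted. Same-numbered surface control and 1 dpi libraries deviated together, with correlations of 0.14, 0.11 and 0.23, and with the replicate number as a block within these 2 groups only eif5a2 passed, whereas the block over all libraries left the count at 12. Fitting only these 2 groups without the block gave 3 genes. The part of the replicate number was thus not told apart from that of the smaller fit. Calls of eif5a2, eef2k and eif3eb held whichever single library was left out, whereas 6 genes passed once surface 1 dpi replicate 3 was dropped and 7 once surface control replicate 1 or 2 or surface 1 dpi replicate 2 was. Without the last of these eif4a1a had an adjusted p of 0.055. Without the division by library factors the median of all genes shifted to 0.57 in surface and 0.40 in cave fish at 1 dpi, and 68 of the 115 genes were called higher and 0 lower in surface and 43 higher and 1 lower in cave fish. Changes are given relative to that shift. Shares of all genes called without that division are not given here, so the 68 and 43 cannot be read as an excess.

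**Figure D1:**
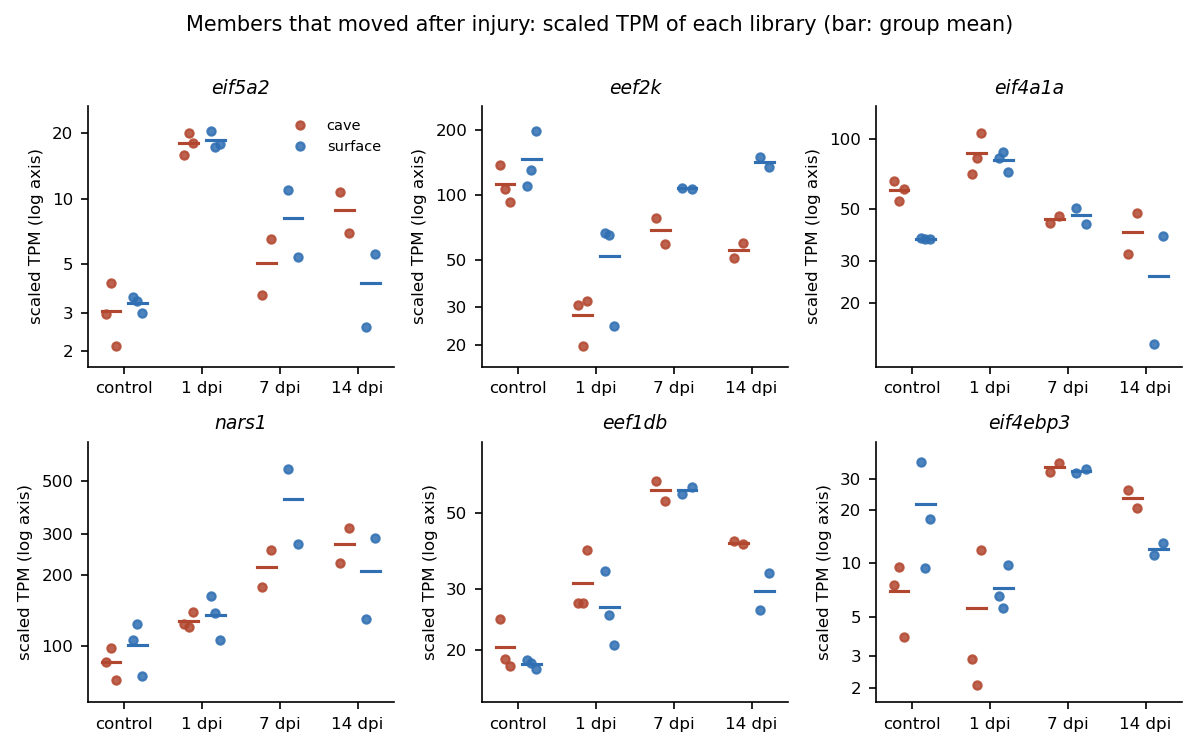
Scaled TPM (log axis) of 6 genes in each library, cave (red) left of surface (blue) at each stage, with bars at group means. eif5a2 stood at 15.9 to 20.5 in the 1 dpi libraries of both forms and at most at 4.12 in controls; eef1db lay between 54.3 and 61.9 in the 7 dpi libraries and at most at 24.6 in controls.

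At 7 dpi the genes that passed had all risen, and cytosolic synthetases made up a large part of them. In cave fish 15 of the 115 genes rose and none fell, beside 5.36% and 2.02% of all genes (7.38% in all). In surface fish 9 rose and none fell, beside 3.11% and 1.48% of all genes (4.59% in all). The median log2 change of the 115 genes was 0.22 in cave and 0.29 in surface fish, against 0.03 over all genes in both.

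Of 19 cytosolic synthetases 18 had log2 changes above 0 in each form, with medians of 0.87 in cave and 0.64 in surface fish. In cave fish 7 passed and in surface fish 4, beside 5.36% and 3.11% of all genes that rose. Cell-type marker sums stood beside them as follows. The 7 myogenic cell markers summed to 183.8 to 194.1 scaled TPM at 7 dpi against 81.2 to 106.8 in cave controls, and to 205.5 to 209.3 at 7 dpi against 102.5 to 265.7 in surface controls; mymk was at 0 in 10 of the 20 libraries. The 13 proliferating cell markers summed to 63.5 to 69.9 at 7 dpi against 40.1 to 46.3 in cave controls, and to 59.96 to 114.0 at 7 dpi against 47.5 to 70.8 in surface controls. Fast fibre markers summed to 228100 to 252600 at 7 dpi against 222600 to 346000 in cave controls, and to 218600 to 230900 at 7 dpi against 336600 to 474400 in surface controls. In cave fish 4 and in surface fish 2 of the 6 myogenic rows tested rose, and none of the 13 proliferation rows passed in either form. The part of these marker levels in the synthetase values was not tested. The 16 mitochondrial synthetases had medians of −0.06 and 0.03, and none passed in either form. In cave fish the genes that passed were rars1, gars1 (glycine), nars1, sars1 (serine), WARS1, eprs1 (glutamate and proline) and farsa (a subunit of the phenylalanine enzyme), and in surface fish nars1, yars1 (tyrosine), farsa and farsb. Under unscaled TPM the medians of the cytosolic class were 0.93 in cave and 0.98 in surface fish, against 0.07 and 0.28 over all genes, and under quantile normalization 0.96 and 0.64, against −0.04 and −0.03.

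nars1 measured 178.9 and 255.1 scaled TPM in cave 7 dpi libraries, against 86.0, 98.8 and 72.5 in cave controls (log2 change 1.32 ± 0.35, adjusted p = 0.036). Surface libraries held 565.6 and 272.4 scaled TPM of nars1 at 7 dpi, against 106.9, 124.0 and 74.7 in controls (1.97 ± 0.35, adjusted p = 0.0086). No 7 dpi library overlapped its controls, but the 2 surface libraries lay far apart, and without surface 7 dpi replicate 1 the surface change was 1.44 (adjusted p = 0.17). The cave call was lost without either 7 dpi library or any 1 control of cave fish (adjusted p = 0.056 to 0.29). rars1 measured 27.3 and 40.4 in cave 7 dpi libraries, against 7.12, 11.7 and 8.93 in controls (1.76 ± 0.36, adjusted p = 0.0096), and gars1 89.9 and 110.6, against 32.5, 33.2 and 45.8 (1.42 ± 0.32, adjusted p = 0.016). Without cave 7 dpi replicate 2 their adjusted p were 0.14 and 0.16, and without cave 7 dpi replicate 1 that of gars1 was 0.081. Their surface changes, 0.64 and 1.12, did not pass. Surface controls were themselves spread for both: rars1 stood at 28.6, 25.5 and 11.0, and gars1 at 80.0, 59.3 and 30.1.

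**Figure D2:**
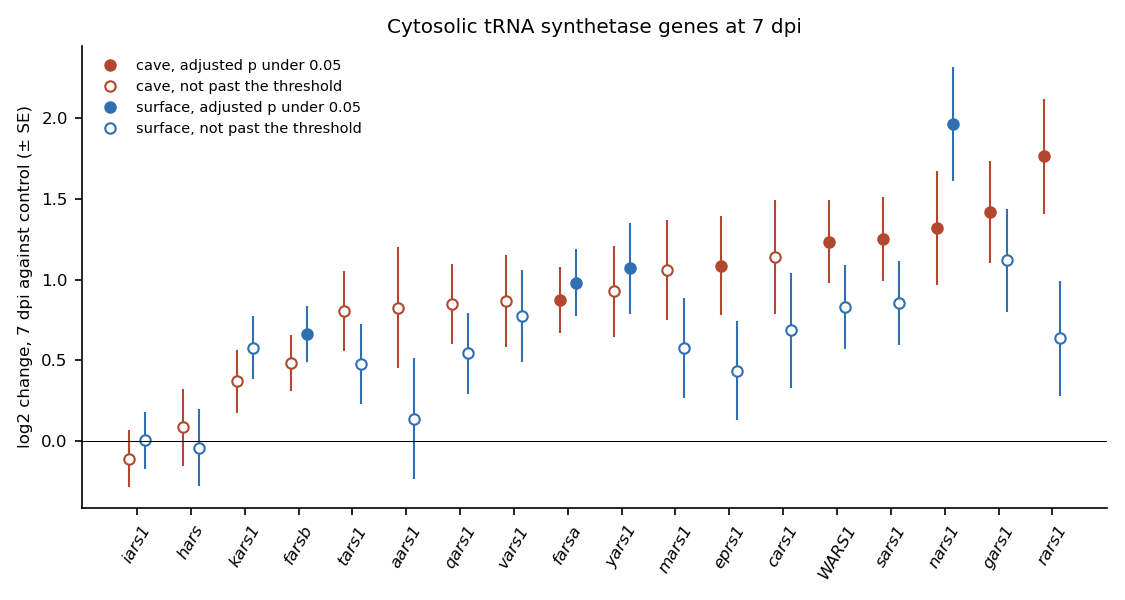
Log2 change of 18 of the 19 cytosolic synthetase genes at 7 dpi against the control of the same form, with standard errors, cave (red) left of surface (blue). Filled points passed an adjusted p of 0.05. Points lie above 0 for 17 of the 18 genes shown in each form, from near 0 for iars1 and hars to 1.76 for rars1 in cave fish and 1.97 for nars1 in surface fish.

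Among elongation genes eef1db, eef2b and eif5a rose at 7 dpi in both forms, and eefsec in cave fish. eef1db measured 61.9 and 54.3 scaled TPM in cave 7 dpi libraries, against 24.6, 18.8 and 17.9 in controls, a log2 change of 1.47 ± 0.21 (adjusted p = 0.001). In surface fish it measured 56.7 and 59.4 at 7 dpi, against 18.7, 18.3 and 17.6 in controls (1.62 ± 0.21, adjusted p = 0.001). The libraries of each group lay close together, and eef1db was the only 7 dpi call that held in both forms whichever single library was left out. eef2b measured 26.5 and 26.4 in cave 7 dpi libraries, against 17.4, 16.3 and 12.3 in controls, and 55.6 and 54.4 in surface 7 dpi libraries, against 25.4, 29.1 and 29.7 in controls (0.76 ± 0.21 and 0.95 ± 0.21).

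Of the initiation genes eif2s3, for the subunit of eIF2 that holds the initiator tRNA, passed in both forms at 7 dpi (0.88 ± 0.19 in cave and 0.73 ± 0.19 in surface fish). None of the 16 eIF3, 17 cap-complex or 5 eIF2B genes passed against control, although 13, 9 and 4 of them in cave fish and 15, 8 and 5 in surface fish had changes above 0. eif4ebp3, a 4E-BP gene, stood at 32.9 and 36.8 scaled TPM in cave 7 dpi libraries, against 7.53, 9.53 and 3.87 in controls (2.24 ± 0.54, adjusted p = 0.024). In surface fish it stood at 32.5 and 34.0 at 7 dpi, against 37.3, 9.49 and 17.7 in controls, and the groups overlapped. The cave call was lost without either cave 7 dpi library or cave control replicate 3 (adjusted p = 0.082 to 0.17). The 7 genes called in both forms were eef1db, nars1, eef1akmt1, farsa, eif2s3, eef2b and eif5a, 6.09% of the 115 genes, against 2.24% of all genes tested.

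With 2 libraries a group the 7 dpi calls depended on single libraries. In cave fish the count was 2 without cave 7 dpi replicate 2, 3 without cave 7 dpi replicate 1, 9 without any 1 of the cave controls, 7 without both skin-rich libraries, 23 without surface control replicate 1 and 24 without surface control replicate 3. In surface fish the count was 1 without surface 7 dpi replicate 1, 3 without surface 7 dpi replicate 2, 4 without surface control replicate 3, cave 1 dpi replicate 2 or either cave 7 dpi library, and 4 with the replicate block. It was 5 without surface control replicate 2, surface 1 dpi replicate 2, cave control replicate 1 or 2, cave 1 dpi replicate 1, or both skin-rich libraries.

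**Figure D3:**
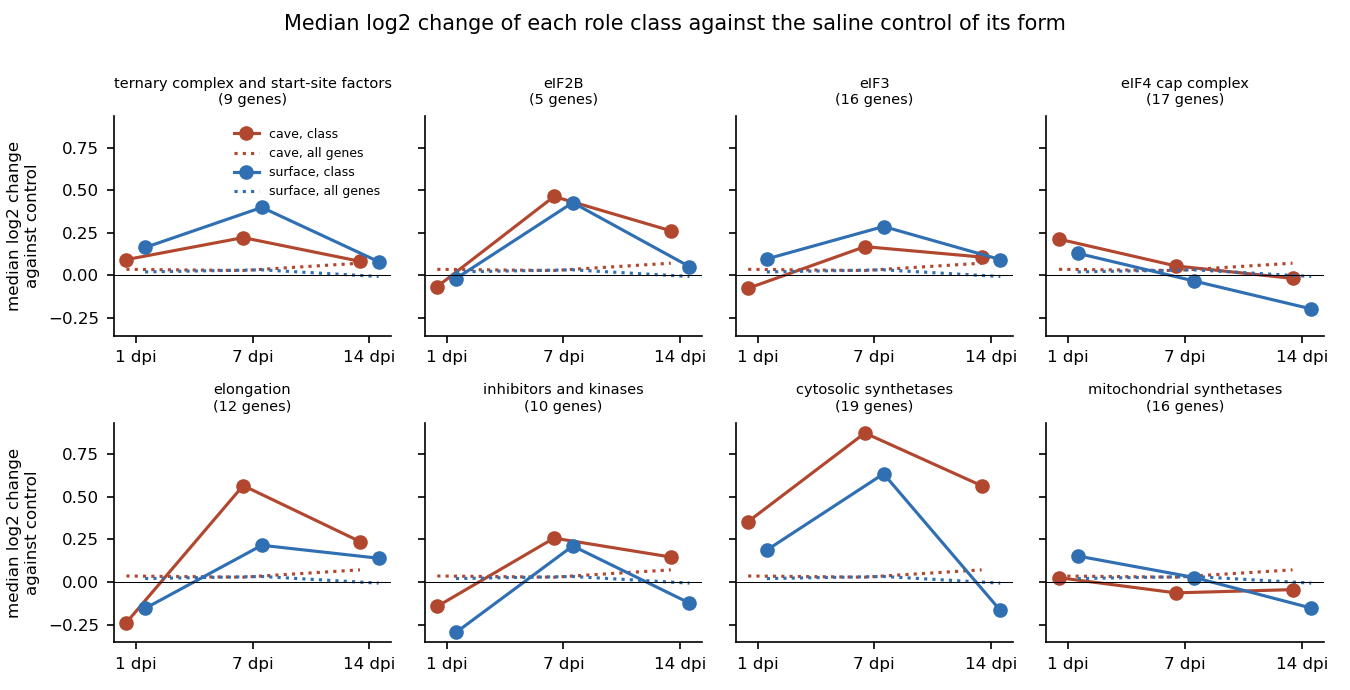
Median log2 change of 8 role classes against the control of the same form (points and lines), cave in red and surface in blue, with the median over all genes as dotted lines. The cytosolic synthetases reach 0.87 in cave and 0.64 in surface fish at 7 dpi, and lie at 0.57 in cave and −0.17 in surface fish at 14 dpi.

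Between 1 and 7 dpi the 2 injured stages differed directly. In cave fish 11 of the 115 genes were higher at 7 than at 1 dpi and 3 lower, beside 4.26% and 5.31% of all genes (9.57% in all). In surface fish 6 were higher and 2 lower, beside 2.2% and 2.19% (4.39% in all). Under unscaled TPM the median of all genes was −0.38 in cave and −0.30 in surface fish. The calls were then 1 higher and 8 lower in cave and 2 lower in surface fish, with shares of all genes not given here. The directions below are therefore relative to the typical gene. eif5a2 was lower at 7 dpi in both forms, at 3.59 and 6.56 scaled TPM in cave and 10.9 and 5.38 in surface fish (log2 changes from 1 dpi of −1.68 ± 0.31 and −1.16 ± 0.31). eif4ebp3 was higher (2.74 ± 0.54 in cave and 2.07 ± 0.54 in surface fish), and so were EIF5AL1 and eef1db in both. In cave fish eef2k, eprs1, qars1 (glutamine), farsb, eif2b4, eif3hb and eif4ebp3l were also higher at 7 dpi, and in surface fish nars1 and EEF1AKMT3. The cave count was 2 or 3 without either cave 7 dpi library, 6 without cave 1 dpi replicate 2 and 8 without both skin-rich libraries. The surface count lay between 1 and 3 without either surface 7 dpi library or surface 1 dpi replicates 2 or 3, and was 5 without surface 1 dpi replicate 1, cave 1 dpi replicate 1 or either cave 7 dpi library.

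At 14 dpi 9 of the 115 genes were higher than control in cave fish and 2 lower, beside 6.22% and 3.87% of all genes (10.1% in all). In surface fish none passed, as for all 16884 genes tested by limma, of which 1593 had an unadjusted p under 0.05, 19 of them translation genes. The cave genes were eefsec, nars1, eef1db, eef1akmt1, eif5a2, gars1, eif2s3, rars1 and eif4e2rs1, with eif1 and eif3hb lower. Cave 14 dpi replicates 1 and 2 differed in marker sums: proliferating cell markers summed to 168.5 and 61.4 scaled TPM, and myogenic cell markers to 88.2 and 209.9. Fast fibre markers summed to 402800 and 272700, while leukocyte markers, at 599.4 and 542.3, lay closer together. The part of these differences in the 14 dpi values was not tested.

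eefsec measured 7.11 and 6.81 scaled TPM in cave 14 dpi libraries, against 2.60, 2.36 and 3.42 in controls (log2 change 1.08 ± 0.21, adjusted p = 0.0082). nars1 measured 226.4 and 317.3 in cave 14 dpi libraries, against 86.0, 98.8 and 72.5 (1.64 ± 0.35, adjusted p = 0.014). In surface fish nars1 measured 131.3 and 287.7 at 14 dpi, against 106.9, 124.0 and 74.7 (0.96 ± 0.35, adjusted p = 0.39), above all controls in both libraries but far apart. The cave call was lost without cave 14 dpi replicate 2 (adjusted p = 0.092). eif1, the start-site fidelity factor, measured 137.1 and 156.6 in cave 14 dpi libraries, against 263.4, 248.7 and 210.6 (−0.71 ± 0.21, adjusted p = 0.048). The call of eefsec held whichever single library was left out. The cave count was 2 without cave 14 dpi replicate 1, 3 without cave control replicate 1, 5 without cave 14 dpi replicate 2, 6 without cave control replicate 2 or 3, 6 without both skin-rich libraries, 7 without surface 1 dpi replicate 2, 19 without surface control replicate 3, and 6 with the replicate block.

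The 2 forms were also compared at the same stage. Cave controls were lower than surface controls for 16 of the 115 genes and higher for 1, beside 4.16% and 4.58% of all genes (8.74% in all). At 1 dpi 12 were lower and 2 higher in cave fish (4.56% and 7.07% of all genes, 11.6% in all), at 7 dpi 2 and 1 (2.01% and 2.55%, 4.56% in all), and at 14 dpi 7 and 4 (5.24% and 6.92%, 12.2% in all). Averaged over the 4 stages 31 were lower in cave fish and 3 higher, beside 14.1% and 18.4% of all genes (32.6% in all). The median log2 difference of that average was −0.16 over the 115 genes and 0.05 over all genes. Under unscaled TPM these medians were −0.02 and 0.16, with 10 genes called lower and 6 higher, and under quantile normalization 30 were lower and 9 higher. At 14 dpi unscaled TPM gave 0 lower and 8 higher, with a median of all genes of 0.39, and quantile normalization 4 and 4. Between controls unscaled TPM gave 0 lower and 1 higher. Shares of all genes called under these other scalings are not given here, so these counts cannot be read as an excess.

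The gene higher in cave fish at every stage was eif4ba, for eIF4B, which stimulates the helicase eIF4A. It measured 65.9, 175.4 and 125.2 scaled TPM in cave controls, against 13.0, 10.7 and 13.9 in surface controls (log2 difference 3.08 ± 0.44, adjusted p = 0.00034). At 1 dpi it measured 90.3, 135.9 and 54.9 in cave and 12.3, 16.5 and 14.0 in surface fish (2.55 ± 0.44, adjusted p = 0.0019). At 7 dpi the values were 20.8 and 75.5 in cave and 8.35 and 8.77 in surface fish, and at 14 dpi 60.5 and 131.0 in cave and 16.6 and 12.5 in surface fish. Every cave library thus lay above every surface library, as for 4.25% of all genes when compared stage by stage, and the cave libraries spread widely. The 7 dpi difference was 1.19 without cave 7 dpi replicate 2 (adjusted p = 0.38), was also lost without either surface 7 dpi library or cave 1 dpi replicate 1 (0.052 to 0.17), and at 14 dpi without cave 14 dpi replicate 2 (0.077). Its paralogue row eif4bb had the opposite sign: 26.4, 24.97 and 23.6 in cave controls, against 43.0, 46.3 and 30.8 in surface controls (−0.64 ± 0.15, adjusted p = 0.014, lost without surface control replicate 1 or 2 at 0.052 and 0.067). Reads of the 2 copies, or alleles that differ from the genome used, may be divided unevenly between rows, which was not tested.

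Genes lower in cave fish covered initiation, elongation and the synthetases. eif3hb, 1 of 2 rows for the eIF3 subunit h, measured 33.1, 20.9 and 25.1 scaled TPM in cave controls, against 50.1, 52.8 and 47.3 in surface controls (−0.92 ± 0.17, adjusted p = 0.0032). At 1 dpi it measured 13.3, 10.04 and 14.2 in cave and 34.4, 32.6 and 28.6 in surface fish (−1.29 ± 0.17, adjusted p = 0.00019), and at 14 dpi 16.5 and 15.04 in cave and 42.3 and 39.2 in surface fish (−1.32 ± 0.21, adjusted p = 0.0013). The groups did not overlap at any stage, but the difference of eif3hb at 7 dpi did not pass. eef2b measured 17.4, 16.3 and 12.3 in cave controls, against 25.4, 29.1 and 29.7 in surface controls (−0.84 ± 0.19), and passed at all 4 stages, with a difference of −0.92 ± 0.11 averaged over them (adjusted p = 1.2e-05). Stage by stage, 7 of the 115 genes had every cave library below every surface library, beside 2.97% of all genes: eef2b, eif3hb, eif1axb (eIF1A), eif5b (subunit joining), iars1, iars2 and kars1 (lysine).

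Of 19 cytosolic synthetases none was above 0 in the difference between controls, and the class median was −0.50. Between controls 5 passed as lower in cave fish, beside 4.16% of all genes. At 1 dpi 5 passed, beside 4.56% of all genes lower in cave fish, and the median was −0.44. Under unscaled TPM the median between controls was −0.25, against 0.16 over all genes, and none passed. sars1 measured 12.7, 13.4 and 12.8 scaled TPM in cave controls, against 35.4, 32.6 and 18.8 in surface controls (−1.05 ± 0.23, adjusted p = 0.0091). eprs1 measured 51.3, 39.9 and 35.6 in cave controls, against 105.3, 115.8 and 55.6 (−1.06 ± 0.27, adjusted p = 0.025). In both genes surface control replicate 3 was the surface library nearest to the cave libraries. eef1e1, a scaffold protein of the multi-synthetase complex despite its name, measured 7.20, 4.72 and 8.75 in cave controls, against 21.0, 14.6 and 10.3 (−1.03 ± 0.27, adjusted p = 0.025). Leaving out surface control replicate 1 or 2 or cave control replicate 2 ended the calls of eprs1 and eef1e1 (adjusted p = 0.062 to 0.12), as did cave control replicate 3 for eprs1 (0.084) and replicate 1 for eef1e1 (0.06). One of the pars2 rows, ENSAMXG00000033563, was listed at 0 in all 3 cave 1 dpi libraries and in 1 of the cave 14 dpi libraries, and was lower on the average over stages (−1.55 ± 0.24, adjusted p = 0.00019). The difference of the other pars2 row, −0.14 ± 0.12, did not pass (adjusted p = 0.39).

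Calls of 4 of the 17 genes between controls, sars1, eef1akmt1, eif3hb and eif4ba, held whichever single library was left out. The count was 6 without surface control replicate 1, 7 without surface control replicate 2, 7 without cave control replicate 2 or without both skin-rich libraries, 9 without cave control replicate 1 and 26 without surface control replicate 3. At 1 dpi it was 6 without cave 1 dpi replicate 2 or both skin-rich libraries and 8 without cave 1 dpi replicate 3 or surface 1 dpi replicates 1 or 3. At 7 dpi it was 0 or 1 without any 1 of the 7 dpi libraries and 1 without cave 1 dpi replicate 1. At 14 dpi it was 3 without surface 14 dpi replicate 1 and 5 without either cave 14 dpi library. Of the 34 calls on the average over stages 25 held whichever single library was left out.

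**Figure D4:**
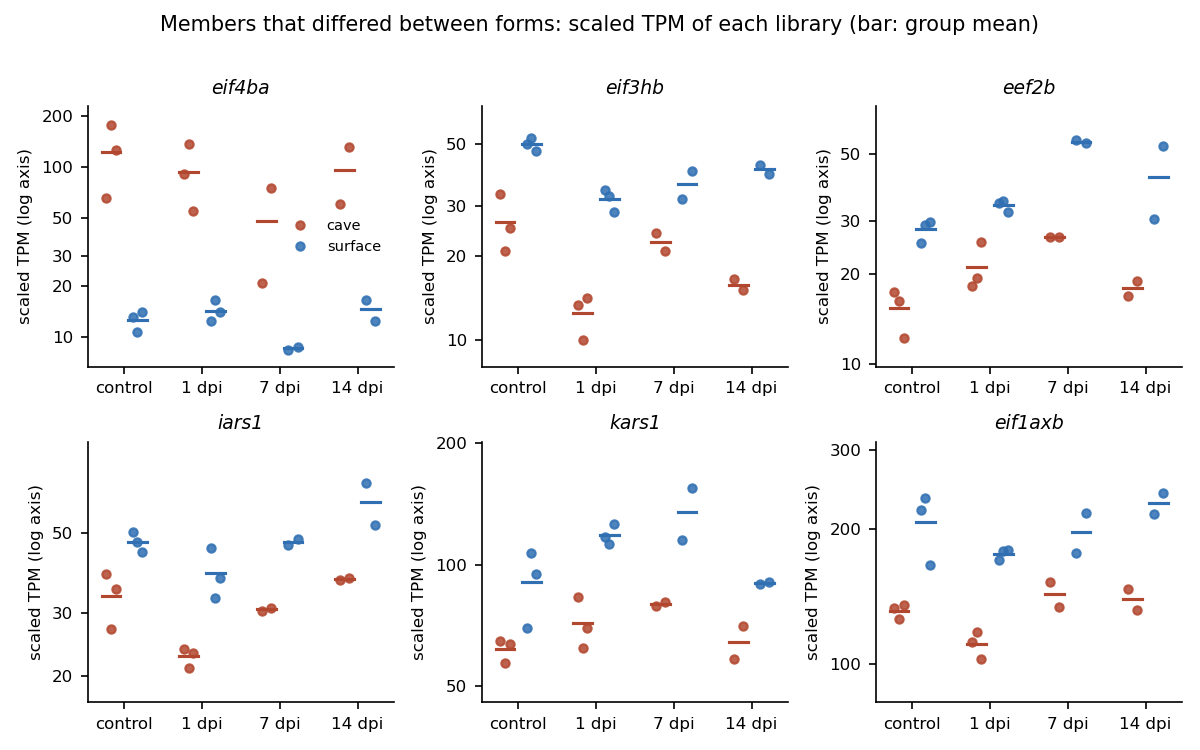
Scaled TPM (log axis) of 6 genes in each library, cave (red) left of surface (blue) at each stage, with bars at group means. eif4ba lies between 20.8 and 175.4 in cave libraries and 8.35 and 16.6 in surface libraries; the other 5 genes lie lower in cave fish at each stage.

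No gene of the 115 passed the test of whether the response to injury itself differed between forms, at 1, 7 or 14 dpi (limma). At that adjusted threshold 0.113%, 0.0474% and 0.0296% of all genes passed. Of all genes 0.0948%, 0.0296% and 0.0118% were higher in this test, and 0.0178% lower at each of the 3 days. At a looser threshold, an unadjusted p under 0.05 (limma), 5, 2 and 26 of the 115 genes passed. The share of all genes at that looser threshold is not given here, so those counts cannot be read as an excess. At 1 dpi 86 of the 115 genes changed in the same direction in both forms, at 7 dpi 93 and at 14 dpi 59, beside 73.4%, 72.3% and 57.1% of all genes. Each form was set against its own controls. At 14 dpi 4 genes had all cave libraries above and all surface libraries below the controls of their form: eefsec, eef1akmt2, mars1 and eef1akmt1, 3.48% of the 115 genes, against 1.7% of all genes tested. Their differences in response were 1.39, 1.52, 1.78 and 1.41 on the log2 scale, with adjusted p of 0.073, 0.091, 0.095 and 0.071. At 7 dpi 1 gene had the reverse pattern (0.87%, against 0.385% of all genes): eif4a1a, with a log2 change of −0.41 in cave and 0.32 in surface fish and an adjusted p of 1 for the difference. The count of genes past the threshold at 14 dpi was 11 without surface control replicate 3, 6 without surface 14 dpi replicate 2 and 2 without cave 14 dpi replicate 2.

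Several translation factors are encoded by pairs of rows whose symbols differ in a final a or b, and the ratio within a library does not depend on the library factor except through the pseudocount. For 10 such pairs the log2 ratio was compared between injured and control libraries by a two-sided exact permutation within forms, with p adjusted over 20 tests; this comparison was added after the data had been seen. eef1db over eef1da had ratios of −4.20 ± 0.35 in cave 1 dpi and −5.55 ± 0.30 in cave control libraries, and of −4.41 ± 0.12 in surface 1 dpi and −5.58 ± 0.06 in surface control libraries (SD, n = 3 each). At 7 dpi they were −3.46 in cave and −3.38 in surface fish (n = 2 each). The mean shifts were 1.26 at 1 dpi (exact permutation p = 0.005, adjusted 0.017) and 2.14 at 7 dpi (p = 0.01, adjusted 0.022), each the smallest p that the design allows. eef1da remained the more abundant row throughout.

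At 1 dpi eif3eb over eif3ea shifted by 1.19, eif4a1b over eif4a1a by −1.23, eif3hb over eif3ha by −0.84, eif4g2b over eif4g2a by −0.77 and eif1axb over eif1axa by −0.65 (exact permutation p = 0.005, adjusted 0.017, for each). eif4g3b over eif4g3a shifted by 0.46 (p = 0.02, adjusted 0.04). For eif4a1b over eif4a1a the ratio was 2.29 ± 0.31 in cave 1 dpi and 3.25 ± 0.14 in cave control libraries, and 2.48 ± 0.33 in surface 1 dpi and 3.97 ± 0.07 in surface control libraries. So the minor helicase row took a larger part of the pair one day after injury in both forms. At 7 dpi that ratio differed from control by 0.12 on average (exact permutation p = 0.41), with opposite shifts of 0.47 in cave and −0.22 in surface fish and both cave 7 dpi libraries, at 3.75 and 3.67, above the cave controls at 3.13 to 3.40. Also at 7 dpi eif3hb over eif3ha was shifted by −0.84 and eif4eb over eif4ea, for the cap-binding protein, by 0.64 (exact permutation p = 0.01, adjusted 0.022, for each). The shifts that passed kept their sign whichever single library was left out, with exact permutation p of at most 0.035. Near-identical copies share reads, so the absolute ratios are uncertain.

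**Figure D5:**
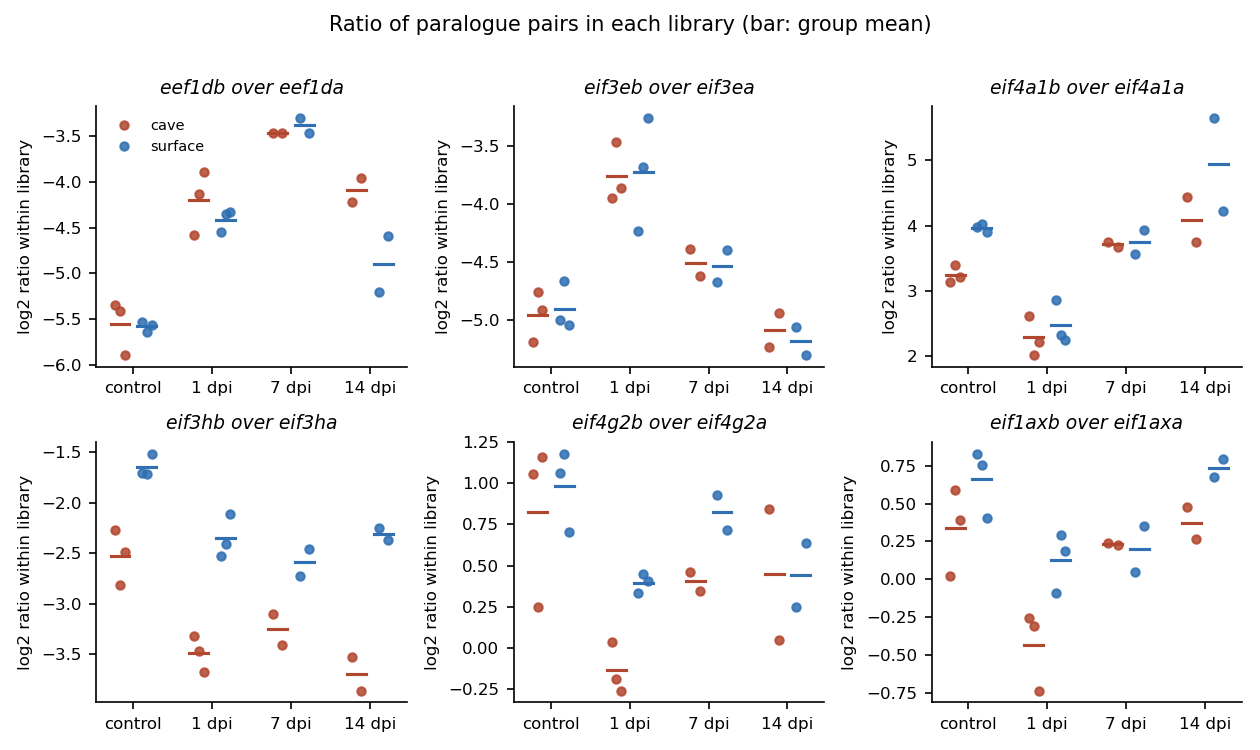
Log2 ratio of 6 paralogue pairs in each library, cave (red) left of surface (blue) at each stage, with bars at group means. The eef1d pair lies lowest in controls and highest at 7 dpi. The eif3e and eif4a1 pairs depart from control at 1 dpi and lie nearer to it at 7 dpi. At 14 dpi, which was not tested, the eif4a1 pair averages 4.09 in cave and 4.94 in surface libraries, against 3.25 and 3.97 in controls. The eif3h pair then averages −3.70 and −2.31, against −2.52 and −1.64 in controls.

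Genes that act with these factors were followed in 6 lists, whose counts stand beside the shares of all genes. At 1 dpi 15.7% of all genes rose and 9.07% fell in cave fish, and 8.35% rose and 6.41% fell in surface fish. Of 11 enzymes of hypusine, diphthamide and polyamine synthesis, 2 rose in cave fish at 1 dpi, and 1 rose and 1 fell in surface fish, which is near those shares. odc1, the rate-limiting enzyme of polyamine synthesis and so of the precursor of the hypusine on eIF5A, measured 80.9, 94.3 and 93.8 scaled TPM in cave 1 dpi libraries, against 48.1, 42.7 and 23.7 in controls (log2 change 1.27 ± 0.43, adjusted p = 0.042). In surface fish odc1 measured 45.8, 107.8 and 40.0 at 1 dpi, against 9.90, 4.06 and 13.4 in controls (2.68 ± 0.43, adjusted p = 0.001). Within each form all injured libraries lay above all controls, and cave controls lay above surface controls (2.02 ± 0.43, adjusted p = 0.0074). The cave call at 1 dpi was lost without cave control replicate 2 or 3, any 1 of the cave 1 dpi libraries or cave 7 dpi replicate 1 (adjusted p = 0.05 to 0.17).

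Of 12 termination, recycling and poly(A)-binding genes, 4 rose and 1 fell in cave fish at 1 dpi and 2 rose in surface fish, beside 15.7% and 9.07% of all genes in cave and 8.35% rising in surface fish. The release factor genes gspt1l (eRF3) and etf1a (eRF1) rose in both: gspt1l measured 18.5, 22.4 and 27.5 scaled TPM in cave 1 dpi libraries, against 7.39, 8.78 and 5.44 in controls, and 17.3, 17.3 and 18.5 in surface 1 dpi libraries, against 6.13, 6.33 and 4.47 in controls. Its log2 changes were 1.54 ± 0.23 (adjusted p = 0.00017) and 1.51 ± 0.23 (adjusted p = 0.00073), and those of etf1a 0.88 ± 0.15 and 0.87 ± 0.15. These 4 calls held whichever single library was left out. A separate gspt1 row of the list did not rise in cave fish at 1 dpi (−0.35 ± 0.20, limma adjusted p = 0.23). Of 24 genes of mTORC1 and its regulators, 6 fell in cave and 4 in surface fish at 1 dpi and none rose, beside 9.07% and 6.41% of all genes that fell. The 6 in cave fish were akt1s1, tsc2, DDIT4L, rragd, larp1b and pdcd4a. There mtor, the kinase row itself, did not pass (−0.25 ± 0.15, limma adjusted p = 0.27), and neither did rptor (0.16 ± 0.15, adjusted p = 0.48). larp1b is a row for a relative of LARP1, which binds the 5′ ends of mRNAs for the translation apparatus. In cave 1 dpi libraries larp1b measured 22.5, 16.2 and 22.8 scaled TPM, against 60.4, 52.4 and 53.2 in controls (−1.40 ± 0.24, adjusted p = 0.00053). In surface 1 dpi libraries it measured 14.4, 22.5 and 22.5, against 74.7, 62.5 and 39.7 in controls (−1.51 ± 0.24, adjusted p = 0.00095). The larp1 row did not fall in cave fish at 1 dpi (0.36 ± 0.21, limma adjusted p = 0.24). tsc2, an inhibitor of mTORC1, fell by 1.04 in cave (SE 0.22) and by 0.73 in surface fish (SE 0.22), the surface call being lost without surface control replicate 3 or surface 1 dpi replicate 1 or 2 (adjusted p = 0.079 to 0.13).

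Of 25 rows of the integrated stress response and its ATF4 targets, 1 rose and 2 fell in cave fish at 1 dpi and 1 rose and 3 fell in surface fish, beside 15.7%, 9.07%, 8.35% and 6.41% of all genes. At 7 dpi 5 rose and 1 fell in cave fish and 3 rose in surface fish, beside 5.36%, 2.02% and 3.11% of all genes. The cave rows that rose were SLC7A1, phgdh, shmt2 and the asparagine synthetase (asns) rows ENSAMXG00000029843 and ENSAMXG00000039240. The row that fell was trib3 (−0.93 ± 0.22, limma adjusted p = 0.0205). In the same comparison atf4a (0.54 ± 0.28, adjusted p = 0.26) and ddit3 (0.04 ± 0.19, adjusted p = 0.945) did not pass. The list holds separate rows, slc7a1a and SLC7A1, for a cationic amino acid transporter, and whether they share reads was not tested. In cave fish at 1 dpi slc7a1a fell (−1.39 ± 0.32, limma adjusted p = 0.0056) while SLC7A1 rose (1.41 ± 0.40, adjusted p = 0.018). At 7 dpi slc7a1a did not pass in cave fish (−0.73 ± 0.36, adjusted p = 0.23). SLC7A1 measured 10.7 and 16.3 scaled TPM in cave 7 dpi libraries, against 1.21, 2.08 and 0.418 in controls (2.74 ± 0.45, adjusted p = 0.0029). In surface fish SLC7A1 measured 10.7 and 4.42 at 7 dpi, against 1.32, 0.798 and 0.810 in controls (2.02 ± 0.45, adjusted p = 0.023). Without cave 7 dpi replicate 2 the cave adjusted p was 0.059, and the surface call was lost without surface 7 dpi replicate 1 (0.28) or surface control replicate 2 or 3. The asparagine synthetase (asns) row ENSAMXG00000029843 measured 109.2 and 131.4 scaled TPM in cave 7 dpi libraries, against 16.9, 7.69 and 36.8 in cave controls (2.74 ± 0.49, adjusted p = 0.0047). In surface fish it measured 271.7 and 222.3 at 7 dpi, against 159.0, 137.1 and 72.8 in controls, above all of them but without passing. Between controls it was lower in cave fish (−2.70 ± 0.44, adjusted p = 0.00099). The 3 asns rows may share reads and the cave call at 7 dpi was lost without cave 7 dpi replicate 2 (adjusted p = 0.070).

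Of 8 partners of the synthetases 5 were lower in cave than in surface fish on the average over stages and none higher, and of 14 mitochondrial translation factors 4 were lower and none higher, beside 14.1% of all genes lower and 18.4% higher. aarsd1, which removes wrongly attached serine from alanine tRNA, measured 14.8, 8.73 and 8.35 scaled TPM in cave 1 dpi libraries, against 33.3, 34.8 and 26.7 in surface 1 dpi libraries, and its average difference was −1.13 ± 0.14 (adjusted p = 2.9e-05). The scaffold genes aimp1a and aimp1b of the multi-synthetase complex differed by −0.80 ± 0.12 and −0.83 ± 0.13. tsfm, the mitochondrial EF-Ts, differed by −0.99 ± 0.15, mrrf (ribosome recycling) by −0.94 ± 0.15 and gfm1 (mitochondrial EF-G) by −0.75 ± 0.14. These 6 calls held whichever single library was left out.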

How the data were processed

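The authors deposited 1 table of TPM (transcript abundance per length, scaled to the same sum in each library) for 27420 genes in 20 libraries. Per the labels' protocols, polyadenylated RNA was made into stranded libraries and read as single reads; STAR 2.7.3a and RSEM 1.3.0 are listed in the submitters' processing notes. Neither build nor annotation is named, so no position or sequence is given, and TPM carry no depth, so depth is unknown.

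TPM were divided by median-of-ratios factors over the 9467 genes at or above 1 TPM in all libraries. Genes at or above 1 TPM in at least 2 libraries (16884) were fitted as log2(scaled TPM + 1) with limma 3.58.1 in R 4.3.3, with 1 mean for each of 8 groups (12 residual degrees of freedom), an intensity trend, 16 comparisons, and Benjamini-Hochberg adjusted p under 0.05 over all genes as the threshold. The fit was tested on simulated data. Groups came from the sample labels. No 2 libraries held identical values.

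Named genes were, for each comparison, the 8 largest rises and falls among called genes whose groups did not overlap, the 3 most abundant of each role class, and the eEF1A, eEF2, 4E-BP, eIF2 kinase, eIF5A, eIF4A, eIF4E and eIF2 alpha rows; of the other lists, up to 3 called genes with the smallest adjusted p. One gene of the set counts in every total but is not reported by name here. Other called genes named to complete a class or a count were chosen after their values were seen. The genes and lists were chosen with earlier results of these data known. Same-numbered libraries are not said to be paired: over 62 such pairs in different groups the median correlation of deviations was 0.03, against −0.02 over 112 other pairs, but all 3 pairs of surface control and surface 1 dpi exceeded 0.1, so the blocked value stands beside that comparison. Alternatives were other pseudocounts, filters, scalings, fits and left-out libraries.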

Additional observations from a re-analysis of the deposited data

How the results depend on the processing

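Counts of called genes among the 115 are given in this order of comparisons. Shares of all genes called under each alternative are not given here. Under unscaled TPM they were 68 (surface 1 dpi), 14 (surface 7 dpi), 44 (cave 1 dpi), 7 (cave 7 dpi) and 1 (cave 14 dpi) against control, 2 (surface) and 9 (cave) for 7 against 1 dpi, and 1 (control), 5 (1 dpi), 1 (7 dpi) and 16 (average of stages) for cave against surface fish. These 3 genes then changed sign: eif3hb (0.13, adjusted p = 0.69) and eif4g2b (0.36, adjusted p = 0.28) at surface 1 dpi, and eif3ea (0.018, adjusted p = 0.97) at cave 1 dpi. With only the compared groups fitted the counts were 3 for surface 1 dpi and 1 for cave against surface controls, and 0 for surface 7 dpi, cave 14 dpi, surface 7 against 1 dpi and cave against surface fish at 7 and at 14 dpi. With no filter 1 gene differed between forms at 7 dpi. Without both skin-rich cave libraries, an alternative added after seeing the data, the counts were 5 (surface 7 dpi), 15 (cave 1 dpi), 7 (cave 7 dpi), 6 (cave 14 dpi) and 8 (cave 7 against 1 dpi), and 7 and 6 for cave against surface fish in controls and at 1 dpi. Each other combination of these settings, a pseudocount of 0.1, a minimum mean of 5 TPM, quantile normalization and no trend moved a count by at most 1.5 times.

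With the replicate block over all libraries 4 genes passed at surface 7 dpi and 6 at cave 14 dpi, and the other counts moved by at most 1.5 times. The replicate block within only the surface control and 1 dpi libraries, added after seeing the data, left 1.

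Leaving out 1 library gave counts of 6 to 13 (surface 1 dpi), 1 to 11 (surface 7 dpi), 0 to 1 (surface 14 dpi), 13 to 31 (cave 1 dpi), 2 to 24 (cave 7 dpi), 2 to 19 (cave 14 dpi), 1 to 11 (surface 7 against 1 dpi) and 2 to 18 (cave 7 against 1 dpi). For cave against surface fish the counts were 6 to 26 (control), 6 to 17 (1 dpi), 0 to 4 (7 dpi), 3 to 13 (14 dpi) and 26 to 41 (average), and for the difference in response 0 to 11 at 14 dpi. Of 280 called gene results 100 held whichever library was left out and 48 under every setting run. These results include called genes of the other lists, up to 3 with the smallest adjusted p. The 100 and 48 therefore do not describe the translation genes alone. For the translation genes 25 of 34 calls held on the average over stages and 11 of 27 at cave 1 dpi. A smaller share held in every other comparison with calls. The cause of these changes was not tested beyond the fewer libraries in each such fit, and where 1 library was left in a group it was assumed to vary like the others. Precision is limited by 2 or 3 libraries a group, and depth is unknown.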
